A study of Mus musculus with 16 samples.

Results

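The mitochondrial carriers of the Slc25 family were followed in liver RNA of 16 mice across diet, treatment and body weight class. Members were all genes whose symbol on the array platform begins with Slc25a, apart from Slc25a1 and Slc25a20, and a gene was represented by its transcript cluster with the highest mean. This gave 44 members among the 18820 genes with a cluster of their own, and 41 of them were among the 14275 genes bright enough to be tested. The study used male C57BL/6J mice on 1 of 4 diets from 9 weeks of age until they were killed at 12 months. They received a control diet (C, AIN-93W), 30% calorie restriction (CR) or a medium-fat diet (MF) in which fat supplied 25% of the energy. The remaining diet (INT, called ID in the labels) switched weekly between ad libitum MF and a stronger calorie restriction. The CR feed was a version of AIN-93W with more vitamins, minerals and choline. INT mice were killed in a week of ad libitum MF. The Wy groups had been given WY14,643, an agonist of the nuclear receptor PPARα, by gavage at 160 mg/kg 6 h before death, and the mock groups its carrier, carboxymethyl cellulose. No mouse had food in the 4 h before the gavage or in the 6 h after it. Each diet had 4 mice, namely a mock and a Wy mouse of high body weight and a mock and a Wy mouse of low body weight, which makes 8 matched pairs and groups of 2 for diet by treatment. The mice carried no genetic change. Whether a response to Wy passed through PPARα therefore cannot be told from these groups.

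Most Slc25 proteins sit in the inner mitochondrial membrane and move metabolites between cytosol and matrix, for example phosphate, adenine nucleotides, amino acids, dicarboxylates and cofactors. In liver they serve the urea cycle, gluconeogenesis, fatty acid oxidation and oxidative phosphorylation, because each of these pathways has steps on both sides of that membrane. A few members lie elsewhere, such as Slc25a17 in peroxisomes and Slc25a46 in the outer mitochondrial membrane, and several are orphans whose cargo is not settled. PPARα is the receptor that switches on fatty acid oxidation genes of the liver in fasting, and activated fatty acids are bound to coenzyme A.

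The promoters of the 4 carriers with the smallest p among those that rose with Wy are shown first, because these genes carry the clearest differences, together with 1 carrier that was higher in CR. The sequences are the 250 bases before the annotated start, from RefSeq on GRCm38.p6, written 5′ to 3′ on the strand of the gene. They stood at chr8:70212282-70212531 (minus strand) for Slc25a42, chr4:141623835-141624084 (minus) for Slc25a34, chr14:75787038-75787287 (minus) for Slc25a30, chr12:108850879-108851128 (plus) for Slc25a47 and chr2:32424067-32424316 (minus) for Slc25a25. Capitals mark AGGTCA, the core site of many nuclear receptors, on either strand in the first 4, and TGACGTCA, the cAMP response element, in Slc25a25.
Slc25a42: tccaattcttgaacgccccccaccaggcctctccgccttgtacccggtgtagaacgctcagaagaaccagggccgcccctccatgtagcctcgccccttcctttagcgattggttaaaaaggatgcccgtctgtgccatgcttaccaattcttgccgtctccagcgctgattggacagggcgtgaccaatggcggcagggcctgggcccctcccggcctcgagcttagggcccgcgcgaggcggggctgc
Slc25a34: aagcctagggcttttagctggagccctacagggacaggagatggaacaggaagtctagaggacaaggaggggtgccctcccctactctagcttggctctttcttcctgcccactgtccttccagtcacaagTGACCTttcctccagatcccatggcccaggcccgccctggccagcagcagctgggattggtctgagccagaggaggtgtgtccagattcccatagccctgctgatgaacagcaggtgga
Slc25a30: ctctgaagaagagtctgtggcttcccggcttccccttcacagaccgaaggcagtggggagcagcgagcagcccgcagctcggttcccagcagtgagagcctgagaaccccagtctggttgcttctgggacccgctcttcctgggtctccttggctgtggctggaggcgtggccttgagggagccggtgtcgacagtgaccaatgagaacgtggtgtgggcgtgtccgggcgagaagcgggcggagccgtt
Slc25a47: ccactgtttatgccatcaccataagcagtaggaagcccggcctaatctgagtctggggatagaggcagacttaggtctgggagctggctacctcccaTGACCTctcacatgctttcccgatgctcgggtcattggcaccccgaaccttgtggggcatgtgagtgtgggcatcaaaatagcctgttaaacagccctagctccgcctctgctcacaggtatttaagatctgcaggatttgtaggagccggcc
Slc25a25: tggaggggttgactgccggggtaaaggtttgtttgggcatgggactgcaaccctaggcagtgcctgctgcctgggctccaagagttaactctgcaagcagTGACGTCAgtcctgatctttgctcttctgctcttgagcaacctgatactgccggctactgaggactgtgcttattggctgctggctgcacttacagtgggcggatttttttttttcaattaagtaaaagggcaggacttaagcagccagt
The AGGTCA match began 119 bases before the start in Slc25a34 and 153 bases before it in Slc25a47, and the windows of Slc25a42 and Slc25a30 held none. The TGACGTCA match began 150 bases before the start in Slc25a25, in 1 of the 3 promoter windows of that gene. This window was picked because it held the match, so its presence there is no result.

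Across the family, 34 of the 44 members had a promoter entry, with 44 windows among the 32851 of all genes. Every motif was searched on both strands of the whole window, from 250 bases before to 50 bases after the start. AGGTCA stood in 16.3% of all windows and in 4 of the 44 Slc25 windows (9.09%), those of Slc25a34, Slc25a39, Slc25a45 and Slc25a47. The PPAR response element, searched as a direct repeat of AGGNCA with 1 base between, stood in 0.381% of all windows and in 0 of the Slc25 windows. Matches to the repeat can contain AGGTCA. TGACGTCA stood in 1.79% of all windows and was found in Slc25a25 and Slc25a36. These are matches of letters in a short window and show neither a bound site nor the lack of one.

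Liver identity was clear on every array. The hepatocyte genes albumin (Alb), Apoa1 and Ttr lay above 13 log2 on every array, with Alb between 13.35 and 13.50, whereas the adipocyte genes Adipoq and Lep and the muscle gene Myh4 did not pass the filter. Other genes of these lists did pass it, namely Plin1 and Retn of adipocytes and Acta1, Ckm, Tnnt3 and Mb of muscle. They lay between 4.34 and 5.68 log2. The tested genes had medians of 7.07 to 7.21 log2 per array, and correlations between arrays between 0.968 and 0.995. The array names in the labels carry 1 code on 14 arrays and a second code on 2, and the 2 were the mock and the Wy mouse of high body weight on INT. The samples were whole liver, so fewer cells of a type and less RNA per cell cannot be told apart in any value below.

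Levels are log2 intensities from robust multi-array averaging (RMA), in which 1 unit is a doubling of signal. They depend on the probes of each gene, so that they were compared between mice and not between genes. Slc25a31, the ADP/ATP carrier of testis, and the orphan carrier Slc25a54 exceeded the filter (log2 4.32) on 0 arrays, with mean log2 intensities of 3.11 and 3.08. Slc25a53, another orphan, exceeded it on 4 arrays, 1 short of the 5 needed, with a mean of 4.26. These 3 members were not tested. Others, such as Slc25a29 and Slc25a18, were tested but lay close to the filter, with Slc25a18 at a mean of 4.61. Over all 16 arrays the standard deviation of a tested member had a median of 0.206 log2, and that of all tested genes 0.161. Among the members, Slc25a30 and Slc25a34 spread visibly wider than their neighbours.

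**Figure D1:**
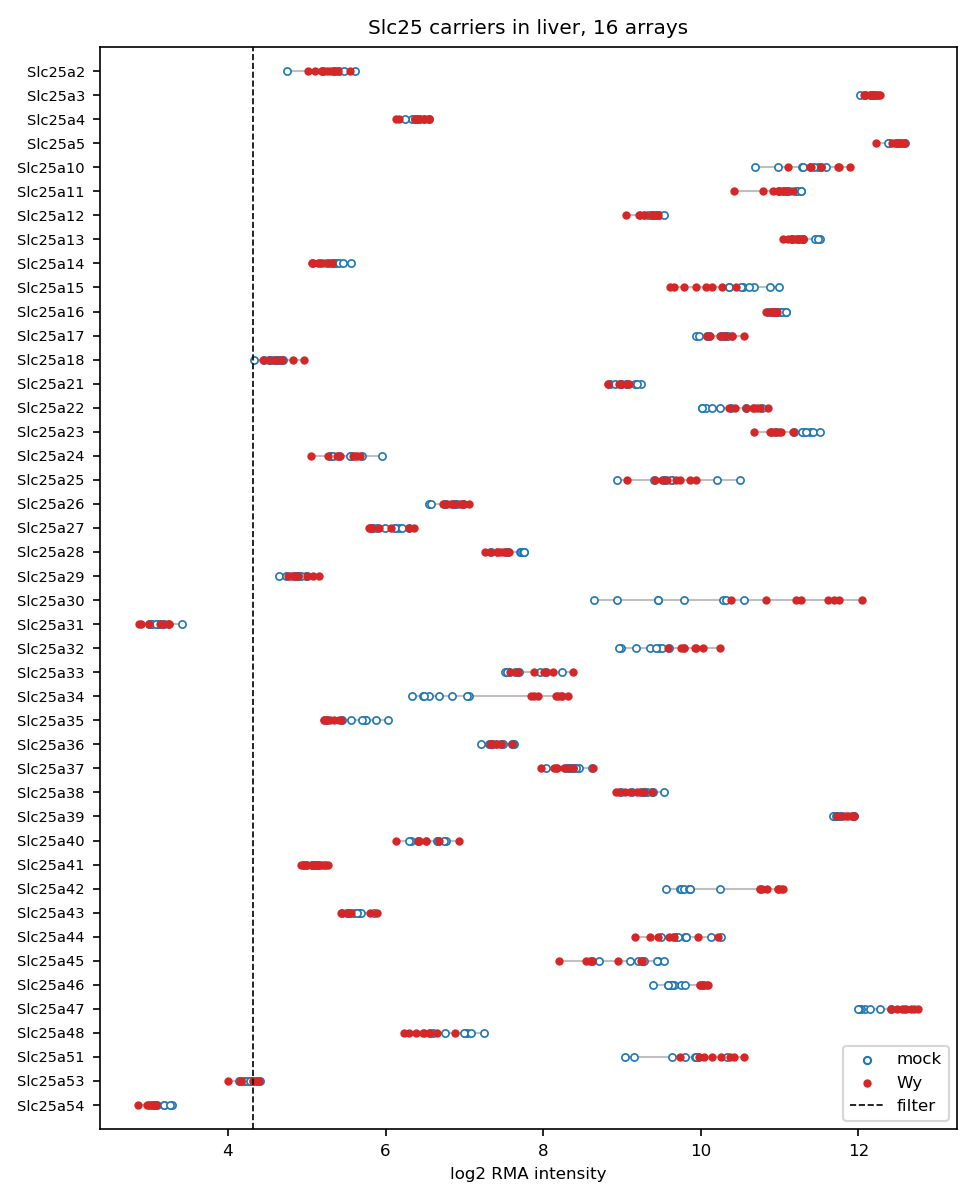
Log2 RMA intensity (horizontal axis) of the 44 Slc25 carriers, 1 row per gene in order of symbol, on 16 arrays. Open blue circles are the 8 mock mice, red dots the 8 Wy mice, and the dashed line is the filter at log2 4.32, below which Slc25a31 and Slc25a54 lie on every array. In Slc25a42 and Slc25a34 the 2 colours are fully apart.

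The comparison of Wy with mock asks which carriers differ 6 h after the agonist. Of the 41 tested members 18 (43.9%) passed the test, 9 of them higher and 9 lower, beside 28.3% of all tested genes called, 12.3% higher and 16% lower. The clearest rises were in the coenzyme A carrier Slc25a42, the folate and FAD carrier Slc25a32, and the carriers Slc25a30, Slc25a34 and Slc25a47. The clearest fall was in Slc25a15, the ornithine carrier of the urea cycle. The median log2 change over the tested members was -0.03, and over all tested genes -0.01. Counts by role group, for Wy and for the diets below, stand beside the shares of all genes in the same comparison. They rest on few genes and are not read as traits of a group. Changes are given as the fitted log2 difference Wy minus mock over 8 pairs with its standard error, and adjusted p-values come from limma with Benjamini-Hochberg adjustment over all 14275 genes, with calls at an adjusted p under 0.05.

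Among carriers of cofactors and nucleotides, 3 of 10 tested members rose and 0 fell. Slc25a42, which brings coenzyme A into the matrix, lay between 9.56 and 10.24 log2 (median 9.82) in the 8 mock mice and between 10.76 and 11.05 (median 10.91) in the 8 Wy mice. The groups did not overlap, and Slc25a42 was higher in the Wy mouse of all 8 pairs. Its change was 1.06 ± 0.05 (SE, n = 8 pairs; adjusted p = 4.71e-07), a 2.09-fold rise. Slc25a32, which carries folate and FAD, lay between 8.97 and 9.59 (median 9.40) in mock and between 9.59 and 10.25 (median 9.86) in Wy mice. The groups met at 1 point, where the mock mouse of high body weight on CR was marginally above the Wy mouse of high body weight on MF. The Slc25a32 change was 0.57 ± 0.07 (adjusted p = 0.000123), with all 8 pairs higher in Wy. Slc25a51, the carrier of NAD, rose by 0.46 ± 0.08 (adjusted p = 0.000889), also in 8 of 8 pairs, although its groups overlapped, at 9.04 to 10.33 in mock and 9.74 to 10.55 in Wy mice.

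The other cofactor carriers did not pass the test. Slc25a17, which carries coenzyme A, FAD and NAD in peroxisomes, differed by 0.13 ± 0.06 (adjusted p = 0.118), and Slc25a16, linked to coenzyme A, by -0.07 ± 0.05 (adjusted p = 0.300). The S-adenosylmethionine carrier Slc25a26 differed by 0.11 and the glutathione carrier Slc25a39 by 0.10. Slc25a36 and Slc25a33, carriers of pyrimidine nucleotides, differed by -0.06 and 0.15. Slc25a40, the second glutathione carrier, has a pair of clusters on the array that differed in the test: the one used here gave -0.06 (adjusted p = 0.703) and the dimmer one -0.23 (adjusted p = 0.0307).

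Carriers of dicarboxylates and those related to uncoupling proteins moved in both directions, with 3 of 8 higher and 3 lower. Slc25a30, an uncoupling-protein-like carrier known from kidney, had the largest change of the family. It lay between 8.64 and 10.54 log2 (median 9.62) in mock and between 10.39 and 12.05 (median 11.44) in Wy mice. The ranges overlapped because levels also differed by diet, but within every pair the Wy mouse was higher, by 1.00 in the C pair of high body weight up to 2.30 in the INT pair of low body weight. The fitted change was 1.67 ± 0.15 (adjusted p = 1.85e-05), a 3.19-fold rise. Slc25a34, an orphan relative of the oxaloacetate carriers of yeast, lay between 6.33 and 7.05 (median 6.61) in mock and between 7.84 and 8.31 (median 8.18) in Wy mice. The groups did not overlap. The change was 1.42 ± 0.07 (adjusted p = 6.06e-07), a 2.67-fold rise, with pairs from 1.16 to 1.73. Its close relative Slc25a35 went the other way, at 5.26 to 6.04 in mock and 5.22 to 5.44 in Wy mice, with a change of -0.37 ± 0.09 (adjusted p = 0.00717) and 7 of 8 pairs lower.

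The remaining carriers of that group changed less. Slc25a10, which exchanges malate and succinate for phosphate, rose by 0.24 ± 0.07 (adjusted p = 0.0285), with 6 of 8 pairs higher. Both INT pairs were lower, by 0.15 and 0.05. Slc25a11, the oxoglutarate/malate carrier of the malate-aspartate shuttle, fell by 0.23 ± 0.08 (adjusted p = 0.0437), and Slc25a14 by 0.18 ± 0.05 (adjusted p = 0.0166). Both were lower in 8 of 8 pairs. These smaller calls were fragile: leaving out 1 array ended the call of Slc25a10 for 12 of the 16 arrays (all those on C, CR and MF), and that of Slc25a11 for 8 (high C, low MF and both INT pairs), with log2 changes between 0.21 and 0.24 for Slc25a10 and between -0.23 and -0.17 for Slc25a11. In the Wy fit, leaving out either mouse of a pair takes the whole pair out of the estimate, so these arrays, here and below, count in whole pairs. Slc25a27, another uncoupling-protein-like carrier, and the oxodicarboxylate carrier Slc25a21 differed by -0.10 and -0.07.

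Of the 9 amino acid carriers 1 rose and 2 fell. Slc25a15 lay between 10.35 and 10.99 log2 (median 10.57) in mock and between 9.61 and 10.45 (median 10.00) in Wy mice. The ranges overlapped, since the highest Wy value, in CR, was above the lowest mock value, in INT. All 8 pairs were lower in Wy, from -0.21 in the MF pair of high body weight to -1.01 in the C pair of high body weight, and the change was -0.62 ± 0.07 (adjusted p = 9.68e-05), a 1.54-fold fall. Slc25a22, a glutamate carrier, lay between 10.02 and 10.78 (median 10.19) in mock and between 10.35 and 10.85 (median 10.67) in Wy mice. It rose by 0.35 ± 0.06 (adjusted p = 0.00178) with 8 of 8 pairs higher. Slc25a44, the carrier of branched-chain amino acids, fell by 0.20 ± 0.06 (adjusted p = 0.0241) in 8 of 8 pairs, and lost the call when any of the 4 arrays on MF was left out (-0.20 to -0.18). The aspartate/glutamate carriers Slc25a13 of liver and Slc25a12 differed by -0.13 ± 0.05 (adjusted p = 0.107) and -0.14 ± 0.06 (adjusted p = 0.104). Slc25a38, the glycine carrier of haem synthesis, differed by -0.15, and the ornithine carrier Slc25a2, the glutamate carrier Slc25a18 and Slc25a29, a carrier of basic amino acids, by -0.02, 0.11 and 0.06. None of these passed the test.

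Of the 7 tested carriers of adenine nucleotides and phosphate 0 rose and 1 fell, namely Slc25a23, a calcium-sensitive ATP-Mg/phosphate carrier (-0.36 ± 0.07, adjusted p = 0.00159), which was lower in 8 of 8 pairs. Slc25a5, the ADP/ATP carrier of most tissues, differed by 0.00 with a 95% interval from -0.10 to 0.10, and its other clusters by -0.02 and -0.01. The phosphate carrier Slc25a3 differed by 0.03 (interval from -0.06 to 0.11) and Slc25a4, the ADP/ATP carrier of muscle and heart, by -0.03 (from -0.17 to 0.11). None of these 3 intervals reached the size of the changes called among the cofactor carriers. Slc25a24, Slc25a25 and Slc25a41, the other ATP-Mg/phosphate carriers, differed by -0.06, -0.08 and -0.01.

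Of the iron carriers, Slc25a28 (mitoferrin of most tissues) fell by 0.21 ± 0.07 (adjusted p = 0.0395, 7 of 8 pairs), a call that ended without any 1 of 12 arrays, those of both C, both INT, the high CR and the low MF pairs (-0.22 to -0.17). Slc25a37, the mitoferrin of red cell precursors, differed by -0.10 (adjusted p = 0.264). Among orphans and the outer membrane protein, 2 of 5 rose and 2 fell. Slc25a47, an orphan carrier found mainly in liver, lay between 12.00 and 12.42 (median 12.06) in mock and between 12.42 and 12.76 (median 12.59) in Wy mice. The ranges touched without crossing, and Slc25a47 rose by 0.48 ± 0.05 (adjusted p = 6.23e-05) in 8 of 8 pairs. Slc25a46, an outer membrane protein of mitochondrial fission, lay between 9.39 and 9.80 in mock and between 9.99 and 10.09 in Wy mice, with no overlap. It rose by 0.40 ± 0.05 (adjusted p = 0.000171), and its second, dimmer cluster rose by 0.42 (adjusted p = 0.000323). The orphan carriers Slc25a48 (-0.42 ± 0.07, adjusted p = 0.00129) and Slc25a45 (-0.33 ± 0.09, adjusted p = 0.0133) were lower in 8 of 8 pairs, and the orphan Slc25a43 differed by -0.03.

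**Figure D2:**
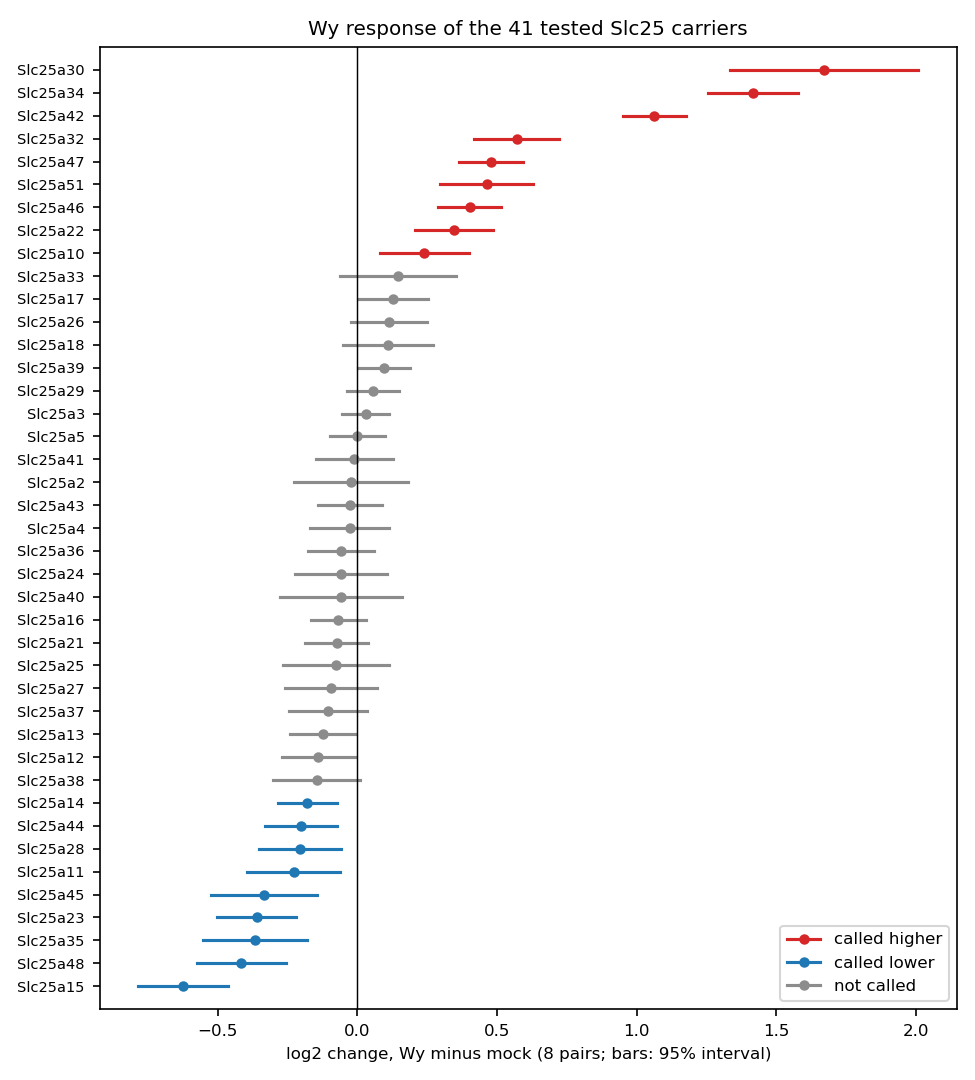
Log2 change, Wy minus mock over 8 matched pairs, of the 41 tested Slc25 carriers (horizontal axis), with 95% intervals as bars. Red marks the 9 carriers called higher, blue the 9 called lower and grey the 23 not called. Slc25a30, Slc25a34 and Slc25a42 stand apart at 1.67, 1.42 and 1.06, and Slc25a15 is lowest at -0.62.

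**Figure D3:**
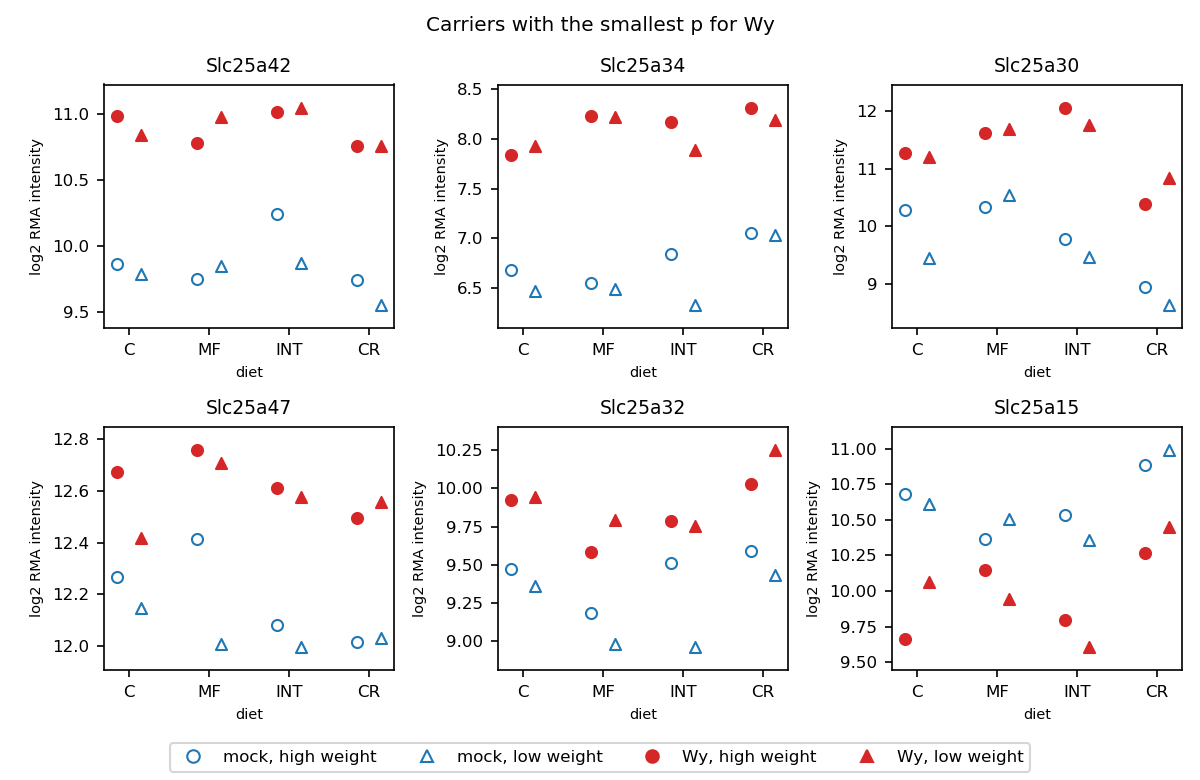
Log2 RMA intensity (vertical axes) on every array of the 6 carriers with the smallest p for Wy, by diet (horizontal axes). Open blue symbols are mock and filled red symbols Wy mice, circles high and triangles low body weight. Slc25a42 and Slc25a34 separate by treatment over all diets together. Slc25a30 separates by treatment within each diet, and its mock values range from 8.64 in CR to 10.54 in MF.

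A separate list of 17 genes of mitochondrial content was also measured. It covers protein import and maintenance, and also the Vdac channels and citrate synthase (Cs). Of these 17 genes 9 rose with Wy and 0 fell, with a median of 0.14, beside 12.3% of all tested genes called higher and 16% lower. Timm9 and Timm10, the chaperones that guide carrier proteins through the space between the membranes, rose by 0.77 ± 0.05 (adjusted p = 2.33e-06) and 0.57 ± 0.06, and Tomm40, the pore of the outer membrane, by 0.34 ± 0.04. Other transporters of the inner membrane and carrier relatives without an Slc25a symbol had 4 of 13 tested genes higher and 1 lower, beside the same shares of all genes. Mtch2 rose by 0.34 and the uncoupling protein Ucp3 by 0.58, and Abcb10, an ABC transporter of the inner membrane, fell by 0.71. Among 6 hepatocyte markers Cps1, the entry enzyme of the urea cycle, fell by 0.32 ± 0.04 and Tat by 0.39 ± 0.09, and the other 4 were not called. The summed level of the hepatocyte list ran from 15.6 to 15.9 log2 in mock and from 15.5 to 15.7 in Wy mice, and was lower in the Wy mouse of 8 of 8 pairs, by 0.06 to 0.18. None of the 7 macrophage, 5 lymphocyte, 7 stellate and endothelial, 4 cholangiocyte, 4 muscle and 2 erythroid markers tested was called, and of 2 adipocyte markers Plin1 was (0.16). The macrophage list ran from 10.9 to 11.8 in mock and from 11.2 to 11.9 in Wy mice, and was higher in the Wy mouse of 4 of 8 pairs. The part of these lists in the carrier changes was not tested.

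The diet comparisons ask how the carriers differed after months on each diet, over mock and Wy mice together and with treatment and weight class in the model. The 3 comparisons that involve CR had called members, and the 3 among C, MF and INT had none. CR against C gave 8 called members of 41 (5 higher, 3 lower), beside 10.5% of all tested genes (4.54% higher and 5.98% lower). CR against MF gave 9 (6 higher, 3 lower), beside 12.7% (5.79% and 6.87%). INT against CR gave 9 (4 higher, 5 lower), beside 9.85% (5.57% and 4.28%). The 3 comparisons use the same 4 CR arrays and are not independent of each other. The median log2 difference over the members was 0.00 in CR against C, 0.02 in CR against MF and 0.00 in INT against CR, and over all genes -0.01, -0.01 and 0.01.

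Against C, the carriers higher in CR were 2 of 9 for amino acids, 1 of 7 for adenine nucleotides and phosphate and 2 of 8 of the dicarboxylate and uncoupling-type group. Against MF they were 3, 1 and 1, and 1 of 10 cofactor and nucleotide carriers. Slc25a44, the carrier of branched-chain amino acids, measured 10.25, 10.21, 10.12 and 9.97 log2 in the 4 CR mice. It measured 9.80, 9.66, 9.81 and 9.65 on C, 9.68, 9.36, 9.82 and 9.59 on MF, and 9.71, 9.17, 9.49 and 9.46 on INT (in the order high mock, high Wy, low mock, low Wy, as in the lists below). All 4 CR values lay above all 12 others. The differences were 0.41 ± 0.09 against C (adjusted p = 0.0114), 0.53 ± 0.09 against MF (0.00241) and -0.68 ± 0.09 for INT minus CR (0.000454), with n = 4 mice per diet.

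Slc25a25, a calcium-sensitive ATP-Mg/phosphate carrier, measured 10.21, 9.94, 10.50 and 9.86 in CR mice. It measured 9.54, 9.51, 9.55 and 9.74 on C, 9.64, 9.69, 9.41 and 9.58 on MF, and 9.62, 9.43, 8.93 and 9.06 on INT. The CR mice were again above all others, and the mock mice of CR were the highest. The differences were 0.54 ± 0.15 against C (adjusted p = 0.0336), 0.55 ± 0.15 against MF (0.0284) and -0.87 ± 0.15 for INT minus CR (0.00302). The first 2 calls each ended without any 1 of 5 arrays, among them both CR mock mice, with differences down to 0.39. In mock mice alone the differences were 0.81 against C and 0.83 against MF, and in Wy mice alone 0.28 and 0.27, with no call in either.

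Slc25a15, the ornithine carrier, measured 10.88, 10.26, 10.99 and 10.45 in CR mice, against 10.68, 9.66, 10.61 and 10.06 on C, 10.36, 10.15, 10.51 and 9.94 on MF and 10.53, 9.79, 10.35 and 9.61 on INT. Within each treatment the CR mice were the highest. The differences were 0.39 ± 0.11 against C (adjusted p = 0.0338), 0.41 ± 0.11 against MF (0.0249) and -0.57 ± 0.11 for INT minus CR (0.00492). Slc25a22, the glutamate carrier, measured 10.57, 10.72, 10.78 and 10.85 in CR, 10.25, 10.57, 10.39 and 10.75 on C, 10.02, 10.67, 10.14 and 10.67 on MF and 10.07, 10.43, 10.02 and 10.35 on INT. It was higher in CR than on MF (0.36 ± 0.09, adjusted p = 0.0178) and lower on INT than in CR (-0.51 ± 0.09, 0.00289), while CR against C did not pass the test. CR minus MF for Slc25a22 was 0.60 in mock mice alone and 0.12 in Wy mice alone, with no call in either. Cps1 and Tat, urea cycle and tyrosine breakdown enzymes among the hepatocyte markers, lay higher in CR than on MF, by 0.31 and 0.60.

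Differences in the same direction were seen in 3 more carriers. Slc25a34 was 0.42 ± 0.11 higher in CR than on C (adjusted p = 0.0265), with 7.05, 8.31, 7.04 and 8.19 in CR mice against 6.68, 7.84, 6.47 and 7.93 on C. Slc25a32 was 0.44 ± 0.10 higher in CR than on MF (adjusted p = 0.0129), with 9.59, 10.02, 9.43 and 10.25 against 9.18, 9.59, 8.98 and 9.79. Slc25a27 was 0.33 ± 0.10 higher in CR than on C (adjusted p = 0.0482), 0.32 higher than on MF (0.0457) and 0.35 lower on INT than in CR (0.0389). The Slc25a27 calls ended without any 1 of 11, 10 and 8 arrays. Those against C and MF also ended with no filter (adjusted p = 0.0563 and 0.0533), with trended robust moderation (0.0555 and 0.0525) and without the second array code (0.0661 and 0.0623), and that against C without the weight term (0.0503). In mock mice alone Slc25a27 differed by 0.18 against C and -0.18 for INT minus CR, against 0.48 and -0.52 in Wy mice alone. Leaving out 1 array also ended the calls of Slc25a15 (6 arrays against C, 5 against MF), Slc25a34 (5) and Slc25a22 (3, against MF).

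Carriers lower in CR were Slc25a45, Slc25a10 and Slc25a30. The orphan Slc25a45 measured 8.71, 8.20, 8.61 and 8.59 log2 in CR mice. It measured 9.20, 8.95, 9.53 and 9.24 on C, 9.10, 8.55, 9.44 and 9.26 on MF, and 9.46, 8.62, 9.29 and 9.26 on INT. All CR mice lay below all C mice, and only the Wy mice of high body weight on MF and INT reached down into the CR range. The differences were -0.70 ± 0.12 against C (adjusted p = 0.00278), -0.56 ± 0.12 against MF (0.00974) and 0.63 ± 0.12 for INT minus CR (0.00624).

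The dicarboxylate carrier Slc25a10 measured 10.98, 11.40, 10.69 and 11.11 in CR mice, 11.59, 11.89, 11.28 and 11.53 on C, 11.49, 11.75, 11.29 and 11.75 on MF and 11.53, 11.38, 11.43 and 11.39 on INT. Within each treatment and weight class CR was lowest, save for the Wy mice of high body weight, where INT was marginally lower. The differences were -0.53 ± 0.10 against C (adjusted p = 0.00593) and -0.53 ± 0.10 against MF (0.00572). INT minus CR was 0.39 ± 0.10 (0.0302), and this call ended without any 1 of 5 arrays (all but the high CR Wy array among the CR mice, and both INT mock arrays), at 0.30 to 0.40. It also ended without weight class as a term (adjusted p = 0.0657), and INT minus CR was 0.65 in mock mice alone and 0.13 in Wy mice alone, with no call in either.

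Slc25a30 had the widest diet differences of the family. It measured 8.94, 10.39, 8.64 and 10.83 in CR mice, 10.28, 11.27, 9.45 and 11.20 on C, 10.33, 11.61, 10.54 and 11.69 on MF and 9.78, 12.05, 9.46 and 11.76 on INT. Within each treatment both CR mice lay below the mice of all other diets. The differences were -0.85 ± 0.22 against C (adjusted p = 0.0241), -1.34 ± 0.22 against MF (0.00188) and 1.06 ± 0.22 for INT minus CR (0.00795). The call against C ended without the C mock mouse of high body weight or without any of 3 CR mice, at -0.86 to -0.65. Slc25a42, the coenzyme A carrier, was 0.34 ± 0.08 higher on INT than in CR (adjusted p = 0.0168) and lost the call without the high INT mock or the low CR mock array, at 0.26 and 0.31. Without both arrays of the second code the INT minus CR calls of Slc25a30, Slc25a42 and Slc25a27 were lost.

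**Figure D4:**
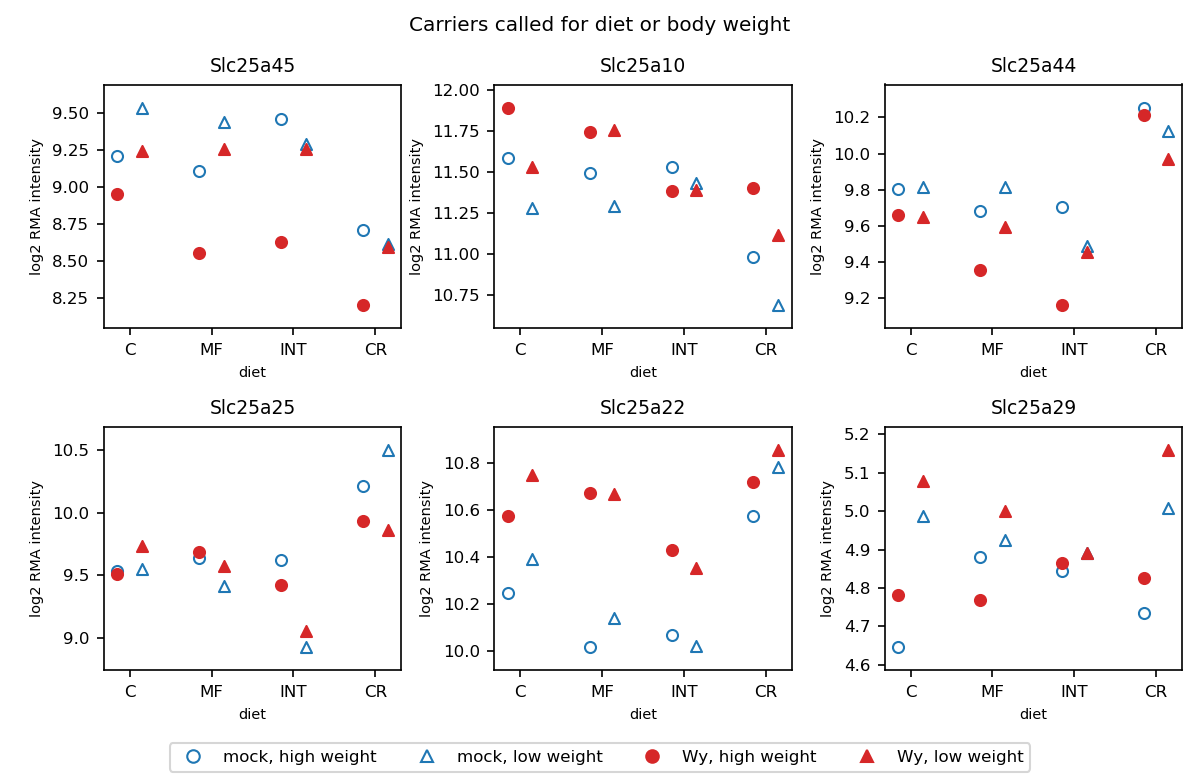
Log2 RMA intensity (vertical axes) on every array of 6 carriers called for diet or body weight, by diet (horizontal axes). Open blue symbols are mock and filled red symbols Wy mice, circles high and triangles low body weight. Slc25a44 and Slc25a25 are highest and Slc25a10 and Slc25a45 mostly lowest in CR, and Slc25a29 is lower in circles than in triangles on C and MF.

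**Figure D5:**
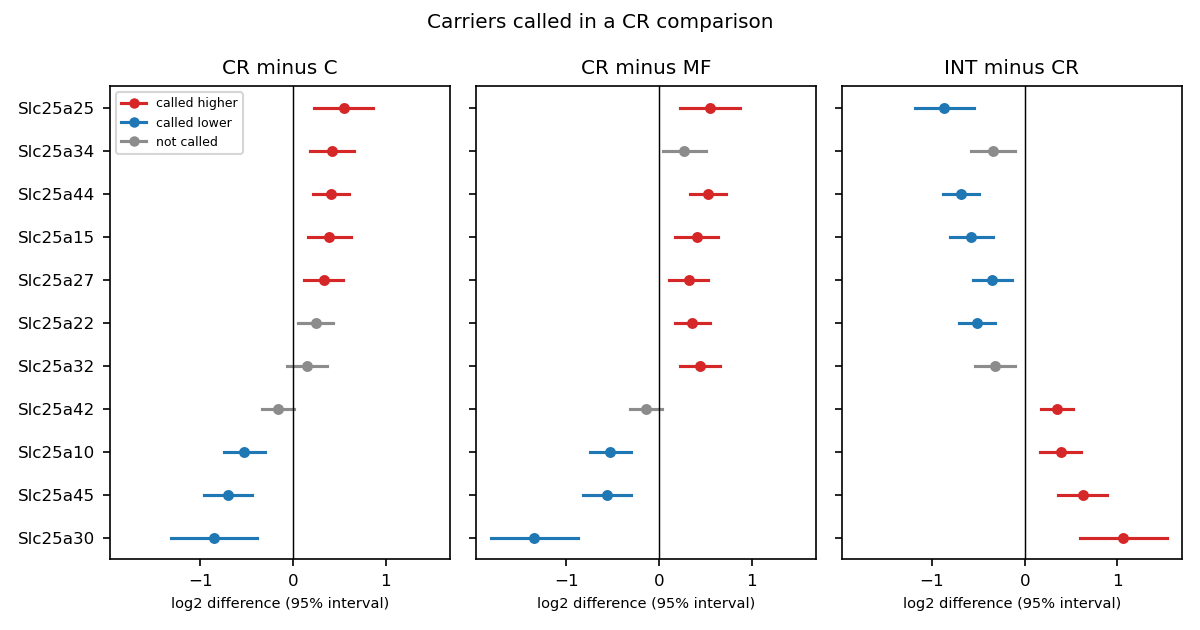
Fitted log2 difference (horizontal axes) with 95% intervals of the carriers called in at least 1 comparison with CR, in CR minus C, CR minus MF and INT minus CR. Red marks called higher, blue called lower and grey not called. The same CR arrays enter all 3 panels, and Slc25a30 has the widest differences, at -0.85, -1.34 and 1.06.

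Other genes of the pathway were compared by diet as well. Of the 17 genes of mitochondrial content 1 was higher in CR than on C, the matrix chaperone Hspa9 (0.20 ± 0.05, adjusted p = 0.0290). Hspa9 was also the 1 gene of this list higher in CR than on MF (0.17). The carrier relative Mtch2 was higher in CR than on MF too (0.23, 1 of the 13 other transporters and carrier relatives). On INT against CR 3 of the 17 were lower, beside 4.28% of all genes, namely citrate synthase Cs (-0.34), Vdac1 (-0.20) and Hspa9 (-0.19). Of the 13 transporters and carrier relatives 1 was lower as well, the pyruvate carrier subunit Mpc1 (-0.21). Several markers of other cells moved with CR. Alas2, the haem synthesis enzyme of red cell precursors, was lower in CR than on C (-1.34 ± 0.14, adjusted p = 0.000163). The other erythroid gene, Slc4a1, differed in the other direction without a call, and the median of the 2 was -0.52. Their summed level was 8.35 to 8.56 log2 in CR, 9.52 to 9.93 on C, 9.29 to 10.1 on MF and 9.58 to 10.1 on INT. That sum is set mostly by Alas2, at 8.20 to 10.0 log2 over all arrays against 4.85 to 5.78 for Slc4a1. Of 5 lymphocyte markers the B cell gene Cd79b was lower in CR than on C (-0.77) and Cd79a lower than on MF (-0.79), with summed levels of 7.50 to 7.92 in CR, 7.79 to 8.59 on C and 8.05 to 8.24 on MF. Tat was higher in CR than on C (0.65), and Kdr, an endothelial receptor, higher than on MF (0.47). On INT against CR 2 of 6 hepatocyte markers were lower, Tat (-0.76) and Cps1 (-0.26), while Alas2 (1.45, 1 of 2 erythroid markers) and Cd79a (0.82, 1 of 5 lymphocyte markers) were higher. No macrophage, cholangiocyte, adipocyte or muscle marker was called in these comparisons, and the part of these lists in the carrier differences was not tested.

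Among C, MF and INT no carrier was called. For MF minus C, where 0% of all genes were called, the smallest unadjusted p belonged to Slc25a32 (-0.29, 95% interval from -0.50 to -0.07), Slc25a30 (0.49, from 0.02 to 0.96) and Slc25a14 (0.13), with an adjusted p of 1.00 in limma, and 2 members had an unadjusted p under 0.05. For INT minus C 0.00701% of genes were called, which is 1 gene, and the carriers with the smallest p were Slc25a14 (0.23, adjusted p = 0.334), Slc25a22 (-0.27) and Slc25a44 (-0.28), with 8 members at an unadjusted p under 0.05. For INT minus MF the background was 0%, and Slc25a24 (-0.34), Slc25a42 (0.21) and Slc25a5 (-0.16, adjusted p = 0.396) came first, with 4 members at an unadjusted p under 0.05. Counts at an unadjusted p under 0.05, here and below, are not set beside the share of all genes. They are not read as differences of the carriers. The 95% interval of the difference lay within 0.5 log2 of 0 for 37 of 41 members in MF minus C, 36 in INT minus C and 36 in INT minus MF. Larger differences therefore cannot be set aside for the remaining members, of which Slc25a30 had the widest interval.

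Body weight class was compared as high minus low. Over all diets 0 of 41 members were called, beside 0% of all genes, and 4 had an unadjusted p under 0.05. Slc25a29 (-0.20, adjusted p = 0.158), Slc25a45 (-0.30) and Slc25a33 (-0.25) had the smallest p. In C and MF together, where 7.39% of genes were called, 4.67% higher and 2.72% lower, 1 member was called, the basic amino acid carrier Slc25a29. It measured 4.65, 4.78, 4.88 and 4.77 log2 in the C mock, C Wy, MF mock and MF Wy mice of high body weight and 4.99, 5.08, 4.93 and 5.0 in their low body weight counterparts. The classes did not overlap, and the difference was -0.23 ± 0.06 (adjusted p = 0.0464). The values were near the filter, and the call ended when any of 14 of the 16 arrays was left out (-0.28 to -0.18, adjusted p between 0.0527 and 0.168), all but the 2 INT arrays of high body weight. In the same mice 2 of 17 genes of mitochondrial content were lower at high body weight, Timm9 (-0.37 ± 0.07) and the mitochondrial DNA factor Tfam (-0.38 ± 0.08).

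Markers of other cells differed between the classes too. At high body weight on C and MF, Cd68 of macrophages was higher (0.76 ± 0.17, 1 of 7 markers called), with summed macrophage levels of 11.2 to 11.9 log2 at high and 11.2 to 11.4 at low body weight. Pecam1 of endothelium was higher (0.28, 1 of 7), and Alas2 (-0.45, 1 of 2) and Cps1 (-0.28, 1 of 6 hepatocyte markers) were lower. Summed erythroid levels, set mostly by Alas2, were 9.29 to 9.61 at high and 9.80 to 10.1 at low body weight. Slc4a1, the other erythroid gene, was not called, and the median of the 2 was -0.18. The part of these markers in the carrier difference was not tested. In CR and INT 0% of genes and 0 members were called, and 4 members had an unadjusted p under 0.05, led by Slc25a29 (-0.17, adjusted p = 0.968), Slc25a24 (-0.27) and Slc25a34 (0.23). The test of the difference between the weight effects in C and MF and in CR and INT called 0.855% of genes and 0 members. Timm9 was called there (-0.50 ± 0.10, adjusted p = 0.0485). Slc25a24 (0.48 ± 0.15, adjusted p = 0.166), Slc25a48 (-0.44) and Slc25a37 (-0.36) had the smallest p there, with 5 members at an unadjusted p under 0.05.

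The last question was whether the Wy response of the carriers varied with diet or body weight. No member was called in either test, nor was any of the 14275 genes (0%) in limma, while 5 members for diet and 3 for weight class had an unadjusted p under 0.05. By diet, Slc25a10, Slc25a48 and Slc25a30 had the smallest p (adjusted p = 0.997). Slc25a30 rose by 2.27 and 2.30 in the INT pairs, 1.44 and 2.19 in CR, 1.29 and 1.14 in MF and 1.00 and 1.75 in C (high and low body weight), and the Wy effect on INT minus that on C was 0.91 ± 0.29 (95% interval from 0.24 to 1.58, adjusted p = 0.996). Slc25a25 fell with Wy in both CR pairs, by 0.28 and 0.63, and lay between -0.20 and 0.19 in the other 6 pairs. The Wy effect on it in CR minus that in C was -0.53 ± 0.18 (adjusted p = 1.00). By weight class, Slc25a2 (0.49), Slc25a32 (-0.36) and Slc25a45 (-0.40) had the smallest p (adjusted p = 0.999). Slc25a32 rose by 0.28 to 0.45 in the pairs of high and by 0.58 to 0.82 in those of low body weight. With groups this small the intervals were wide. The interval lay within 0.5 log2 of 0 for 31 of 41 members in the test by weight class, and for 20, 18 and 16 members in the tests of CR, MF and INT against C. In the fit for CR against C 1 gene in all (0.00701%) was called, and it was no carrier.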

How the data were processed

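Liver RNA of 16 mice was hybridised to Affymetrix Mouse Gene 1.1 ST arrays, 1 array per mouse. The deposited values are log2 intensities that the authors obtained with RMA, which corrects background, equalises the distributions of the arrays and summarises probes (version not given in the sources used here). Because the distributions were made equal, a shift shared by all genes cannot be seen. Of 35556 transcript clusters 21218 had exactly 1 gene in the platform annotation, 1881 had several and 12457 were not listed. The 1-gene clusters gave 18820 genes. Of 52 clusters with an Slc25a symbol, 1 is shared with Dcaf13 and was left out, and 4 members have more than 1 cluster. The members, gene lists and rules were chosen with earlier results of these data known.

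Genes were tested where the intensity was over 20 (log2 4.32) on 5 or more arrays, as in the study's methods (14275 genes). Models were fitted over all genes with limma 3.58.1 in R 4.3.3, with Benjamini-Hochberg adjustment, with calls at an adjusted p under 0.05. Models of Wy and of the interactions had the matched pair as a block, diets had treatment and weight class as terms, and body weight had diet and treatment. Pairs come from the treatment protocol in the labels, which says that mock and Wy mice were matched by weight within diet. The deviations of paired mice from their group means correlated over genes at 0.531 (C), 0.564 (MF), 0.0839 (INT) and -0.169 (CR). Each group held 1 mouse of high and 1 of low body weight. The correlation therefore shows only how alike the high minus low differences of mock and Wy mice were. It cannot check the pairing beyond weight class, and it was near 0 or negative on INT and CR. P-values measure the spread between these mice. The number of arrays limits the precision. All members called in a comparison are named, or the 3 with the smallest p where none was, and the 12 with the smallest p have their values per array or by range. Members not called are named with their Wy changes as well, to account for the family. For other lists up to 3 called genes were named, with further markers where they moved with a result. The rule also asked for the highest and lowest levels, and the highest are not given because intensities of different probes cannot be ranked. Alternatives were another filter or none, median centring, trended robust moderation, the mean of all clusters, the fit without the second array code, without the pair block or weight term, within a treatment, and leaving out each array. The fits were tested on simulated data.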

Additional observations from a re-analysis of the deposited data

Results flagged for a closer look

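The Wy minus mock differences of the 8 pairs were checked for a pair far from the others in each of the 41 tested carriers, by the gap to its nearest neighbour as a share of the whole range. In 2 carriers 1 pair stood apart at the 95% level. Chance flags about 1 in 20 such sets, and 2 of 41 is near that rate. In Slc25a18, a glutamate carrier close to the filter, the low body weight pair on MF differed by 0.63 log2, while the other pairs lay between -0.08 and 0.18, and the gap was 0.639 of the range. In Slc25a42, the coenzyme A carrier, the high body weight pair on INT rose by 0.78, while the others rose by 1.02 to 1.20, and the gap was 0.566 of the range. Both arrays of that pair carry the second array code, and whether this has a part in the value was not tested. No carrier was called for a difference of the Wy effect between diets or weight classes.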

How the results depend on the processing

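Of the 75 named results, 45 were called, and under the other settings and with each array left out in turn 0 reversed and 0 of the uncalled became called. Leaving out 1 array never ended 28 of the calls and ended 17 at least once. The count of carriers called, 18 for Wy, 8 for CR minus C, 9 for CR minus MF, 9 for INT minus CR and 1 for body weight in C and MF, ranged without 1 array from 14 to 17, 3 to 8, 5 to 9, 6 to 10 and 0 to 2, lowest for CR minus C and CR minus MF without the low CR mock array. The counts of 0 in the other comparisons stayed at 0. With no replicate block, which drops the pairing, 18 carriers were again called for Wy, and both tests of differences in the Wy effect gave 0. In mock arrays only, CR minus C, CR minus MF and INT minus CR gave 0, 0 and 0 calls, and in Wy arrays only 0, 1 and 1, with 8 arrays in the fit. The single call for body weight, Slc25a29, was lost (0 calls) without the filter, with trended robust moderation, in mock arrays only and in Wy arrays only; the cause was not tested. Calls of Slc25a27 against C and MF and of Slc25a10 for INT minus CR that ended under other settings are given with their values above. Slc25a28 and Slc25a11 lost their Wy calls after median centring and within the first array code, and Slc25a11 also with no filter. For Wy, the fit within the first array code repeats the fit without either high INT array. Over all genes, the calls that were higher went after median centring from 1755 of 4038 to 2190 of 4066 for Wy, from 648 of 1501 to 855 of 1498 for CR minus C, from 826 of 1807 to 1000 of 1778 for CR minus MF, and from 795 of 1406 to 580 of 1384 for INT minus CR. Within the first array code INT minus CR called 378 genes, against 1406. The fits of separate clusters were added after seeing the data. Signal limits what could be seen in Slc25a31, Slc25a53 and Slc25a54, which did not pass the filter.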
